A study of Mus musculus with 4 samples.

Results

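The receptors and breakdown enzymes of retinoic acid were followed in cultured neonatal mouse testes. The genes are the retinoic acid receptors Rara, Rarb and Rarg, the retinoid X receptors Rxra, Rxrb and Rxrg, and the enzymes Cyp26a1 and Cyp26b1. All probe sets of the array annotated with 1 of these 8 symbols alone were taken, which gave 11 of the 45101 probe sets in the deposited table. The 8 genes are among 18193 that the annotation names by a single symbol. Testes of 129 strain mice aged 2 days post partum were cultured for 24 h in medium with fetal bovine serum, and all groups shared strain, age and culture. The 2 control samples received the vehicle dimethyl sulfoxide, and the 2 treated samples received WIN 18,446 at 1 µM. Total RNA was amplified and measured on Affymetrix Mouse Genome 430 2.0 arrays, 1 array per sample. The labels do not say whether samples came from separate animals or cultures, or how many testes each held, so p-values cover no more than the spread among these 4 samples, and that spread may be technical.

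WIN 18,446 is a bisdichloroacetyldiamine that inhibits the retinaldehyde dehydrogenases, which oxidise retinaldehyde to retinoic acid. Retinoic acid binds a retinoic acid receptor (RAR), which sits on DNA as a pair with a retinoid X receptor (RXR). Without ligand the pair holds corepressors, and with ligand it recruits coactivators. Cyp26 enzymes are cytochromes P450 that hydroxylate retinoic acid and so end its action, and Cyp26b1 is known for keeping retinoic acid low in the fetal testis. Rarb and Cyp26a1 are also textbook targets of the pathway, each with a retinoic acid response element near its start site. The question for these genes is whether the transcripts that read and remove retinoic acid differ when its synthesis is inhibited for a day.

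The response element known from Rarb and Cyp26a1 can be read in the RefSeq promoter windows of assembly GRCm38.p6. Each window holds the 250 bases before a start site and 50 after it, and the 8 genes have 15 windows. Both strands were searched for a direct repeat of a half-site with 5 bases between the copies. A half-site was the consensus AGGTCA, its variant GGGTCA with a different opening base, its variant AGTTCA with a different inner base, or GGTTCA with both changes. Such a repeat lay in windows of 2 of the 8 genes, shown here because these genes carry the element and were at or near background on the arrays. Capitals mark the repeat, and each sequence is written 5′ to 3′ along the strand of its gene.
Rarb, chr14:16575493-16575549, minus strand: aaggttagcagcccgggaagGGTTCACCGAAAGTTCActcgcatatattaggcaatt
Cyp26a1, chr19:37697756-37697812, plus strand: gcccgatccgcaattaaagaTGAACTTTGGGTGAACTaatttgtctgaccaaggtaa
The Rarb repeat lay at -53 to -37, counted from the annotated start site as 1. That of Cyp26a1 lay at -32 to -16 and reads in the opposite orientation, as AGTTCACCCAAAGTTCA. Such a repeat was present in 32 of all 32851 windows of this length (0.0974%), and in windows of 31 of 27025 genes. Both repeats shown are built from the variants AGTTCA and GGTTCA alone, so finding them depends on the variants allowed. The element was known in both genes beforehand, so the count of 2 among the 8 genes is a description. The single Cyp26b1 window and the windows of Rara, Rarg and the 3 RXR genes held no match to these letters. Repeats with 1 or 2 bases between the copies were also searched. They lay in 73 and 88 of all windows, and in no window of the 8 genes.

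Levels are log2 values, and differences are WIN 18,446 minus vehicle. The array carries 27 probe sets against Bacillus genes, whose highest value was 2.22, and this was taken as the background. Of the 11 probe sets, 5 were at or below it on all 4 arrays, against 34.1% of all probe sets. Probe sets were tested where their 4 values averaged 5 or more, which left 4 of the 11, 1 each for Rarg, Rxra, Rxrb and Cyp26b1. Limma compared the groups over all 20895 such probe sets, with Benjamini-Hochberg adjustment and a threshold of 0.05 that is meant by "called" below.

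Control probe sets and cell type markers differed between some arrays. Treated array 1 stood apart in its controls, with 6.55 for the 5' end of the small ribosomal RNA (8.12 to 8.67 elsewhere) and 13.52 for the B1 repeat (12.73 to 12.93 elsewhere). On the same array Rara, Rxra and Rxrb were at their highest and Cyp26b1 at its lowest, and the part of the array in those values was not tested. Markers of Sertoli, germ and Leydig cells stood well above background, with 9 of 9, 9 of 10 and 5 of 5 named genes tested. The marker lists and the other gene lists were chosen with earlier results of these data known. Of the 9 Sertoli genes 5 fell, against 3.46% of all tested genes (0 called without either vehicle array), and their summed level (log2) was 16.67 and 16.60 with vehicle and 16.30 and 16.31 with WIN 18,446. Those of smallest p were Cldn11, Sox9, Dhh and Wt1, with differences of -1.25, -1.15, -0.43 and -0.58. The Sertoli genes did not all go one way: Amh, the anti-Müllerian hormone, read 9.37 and 9.85 with vehicle and 11.12 and 10.60 with WIN 18,446 (difference 1.25, limma adjusted p = 0.0575). Of 9 tested germ cell genes Sall4 and Tdrd9 fell (differences -0.60 and -1.02). The other 7 were not called, and the median difference of the 9 was -0.07. Dazl, Ddx4 and Zbtb16 were higher on both treated arrays than on both vehicle arrays (differences 0.29, 0.24 and 0.25). Dppa4 and Gfra1 were lower on both (differences -0.46 and -0.30). The 5 tested Leydig cell genes, of 7 listed, were not called, but each difference was negative, with a median of -0.31. Their summed level was 15.45 and 15.20 with vehicle and 15.13 and 14.94 with WIN 18,446. Cyp11a1 had the smallest p of them (difference -0.32, limma adjusted p = 0.195). Among 7 tested peritubular and stromal genes Des fell (difference -1.47). Of 8 endothelial genes 5 were tested and 1, Robo4, fell (difference -1.01), and their summed level was 10.93 and 11.15 against 10.19 and 10.07. These calls too stand against the 3.46% of all tested genes, and limma made none of them without either vehicle array. The lists for macrophages, erythroid cells and mesonephric and epididymal epithelium had 2, 1 and 4 tested genes, and 0 were called. Their genes of smallest p in limma were C1qb, Hbb-b2 and Cdh1, with differences of -0.19, -1.42 and 0.25. The part of the marker genes in the receptor and Cyp26 values was not tested.

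None of the 4 tested probe sets was called by limma, and 0 had an unadjusted p under 0.05, where 5.18% of all tested probe sets were called and 22% had such a p. That background rests on both vehicle arrays: leaving out either one, limma called 0 probe sets. At an unadjusted p under 0.05 there were then 2455 (vehicle array 1 left out) and 2820 (vehicle array 2 left out). In those fits the spread within a group came from the treated arrays alone. The treated arrays correlated at 0.985 and the vehicle arrays at 0.992, and the part of this in the lost calls was not tested. With all 4 arrays, the limma adjusted p-values of the 4 ran from 0.328 for Rxrb to 0.733 for Rarg. The median absolute difference of the 4 was 0.21 log2 units, against 0.18 over all probe sets tested, and the largest was 0.24. In 2 of the 4, Rarg and Rxrb, all treated values lay on one side of all vehicle values, against 53.1% of all probe sets tested. In whole tissue, fewer cells of a type and less RNA per cell cannot be told apart.

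**Figure D1:**
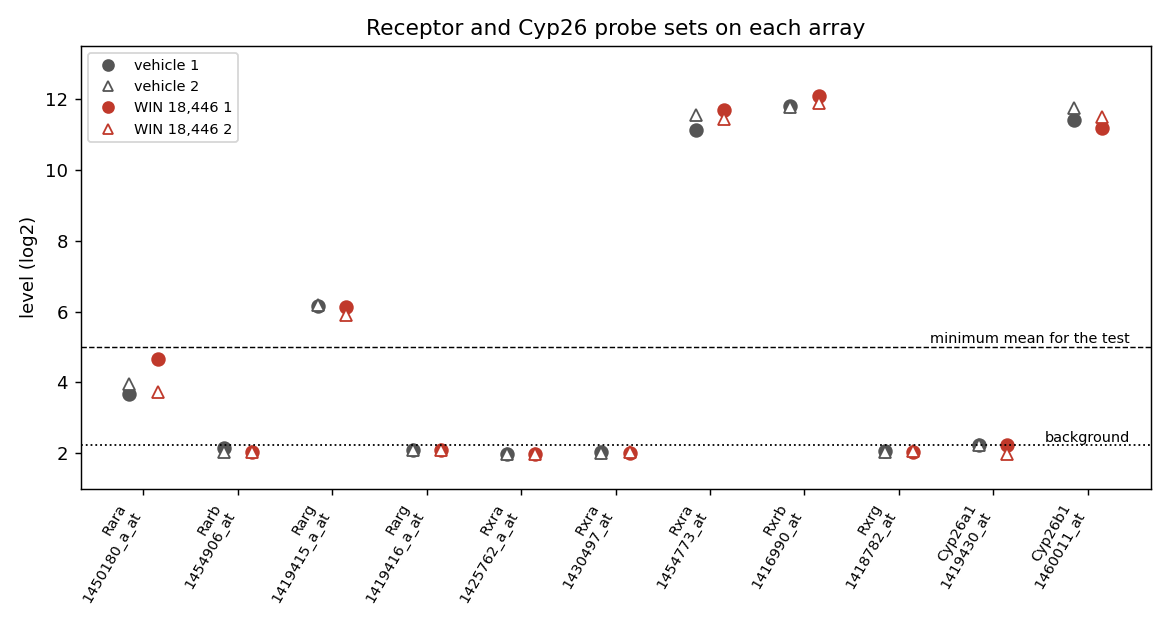
Level (log2) of the 11 probe sets of the 8 genes on each of the 4 arrays, with grey symbols for vehicle and red symbols for WIN 18,446; filled circles are replicate 1 and open triangles replicate 2. The dotted line is the background of 2.22 and the dashed line the mean level of 5 needed for the test. The bright probe sets of Rxra, Rxrb and Cyp26b1 lie above 11 in both groups, Rarg lies near 6, Rara lies under the dashed line, and the others lie at or near the dotted line.

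Among the RARs, Rarg, the form best known from spermatogonia, was the only gene with a tested probe set. Rarg (1419415_a_at) read 6.16 and 6.18 with vehicle and 6.12 and 5.91 with WIN 18,446. Both treated arrays were lower than both vehicle arrays, yet the treated arrays lay 0.21 apart, more than the difference of -0.16 (SE 0.22, limma adjusted p = 0.733). The 95% interval ran from -0.71 to 0.40, that is, from a 1.64-fold fall to a 1.32-fold rise. The difference shrank to -0.05 without treated array 2 and was -0.26 without treated array 1, and it was -0.05 after quantile normalization again. A second Rarg probe set (1419416_a_at) read 2.09 ± 0.0064 (SD, n = 2) with vehicle and 2.09 ± 0.0020 with WIN 18,446. It was at background on every array, so the probe sets of Rarg did not show the same level and only 1 of them bears on a difference.

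Rara, the receptor that in the testis is best known from Sertoli cells, had 1 probe set (1450180_a_at). It read 3.66 and 3.94 with vehicle and 4.66 and 3.73 with WIN 18,446. Treated array 1 was the highest and treated array 2 lay between the vehicle arrays, so the groups overlapped. All 4 values were above background, but their mean was under the level needed for the test. The treated arrays lay 0.92 apart, more than the difference of 0.40. When all probe sets were tested without a level filter, limma gave that difference an SE of 0.39, a 95% interval from -0.71 to 1.5 and an adjusted p of 0.867.

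Rarb, itself a target of retinoic acid, was at background in both groups. Its only probe set (1454906_at) read 2.15 and 2.02 with vehicle and 2.04 and 2.04 with WIN 18,446. All 4 values were under 2.22, so the data give no fold for Rarb in either direction. A fall from the vehicle level could not have been seen.

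The RXRs pair with the RARs and with several other nuclear receptors. Rxrb (1416990_at) read 11.81 and 11.77 with vehicle and 12.09 and 11.88 with WIN 18,446. Both treated arrays were above both vehicle arrays, and the difference of 0.20 (SE 0.10, 95% interval -0.06 to 0.46) was about as large as the 0.21 between the treated arrays. It was not called (limma adjusted p = 0.328), although Rxrb had the smallest adjusted p of the group. Without treated array 1 the Rxrb difference was 0.10. Without treated array 2 it was 0.31, with an unadjusted p of 0.0241 and an adjusted p of 0.121 in limma.

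Rxra had 3 probe sets that read very different levels. The bright one (1454773_at) read 11.12 and 11.56 with vehicle and 11.68 and 11.44 with WIN 18,446. Vehicle array 2 lay between the treated arrays, so the groups overlapped, and the vehicle arrays lay 0.44 apart, more than the difference of 0.22 (SE 0.18, 95% interval -0.24 to 0.67, limma adjusted p = 0.544). The sign turned without vehicle array 1 (-0.0047), and leaving out vehicle array 2 gave 0.44. The other Rxra probe sets (1425762_a_at and 1430497_at) were at background on all 4 arrays, with values from 1.97 to 2.03. Rxrg, the RXR best known from muscle and brain, was also at background, at 2.06 and 2.04 with vehicle and 2.04 and 2.05 with WIN 18,446 (1418782_at).

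Of the enzymes that remove retinoic acid, Cyp26b1 was bright and Cyp26a1 was not. Cyp26b1 (1460011_at) read 11.41 and 11.75 with vehicle and 11.17 and 11.50 with WIN 18,446. Treated array 2 lay above vehicle array 1, so the groups overlapped, and the arrays of a group lay 0.34 and 0.32 apart, more than the difference of -0.24 (SE 0.17, limma adjusted p = 0.479). The 95% interval ran from -0.67 to 0.19, that is, from a 1.59-fold fall to a 1.14-fold rise. Leaving out vehicle array 1 gave a Cyp26b1 difference of -0.41, and leaving out vehicle array 2 gave -0.07. It was -0.08 without treated array 1 and -0.40 without treated array 2. Cyp26a1 (1419430_at) read 2.24 and 2.24 with vehicle and 2.24 and 1.97 with WIN 18,446. The value on treated array 2 was under the background of 2.22 and the other 3 were barely above it, so no fold is given for Cyp26a1.

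Over all genes, 31 held a direct repeat with 5 bases between the half-sites in a RefSeq promoter window, Rarb and Cyp26a1 included. Of the 31, 11 had a probe set with a single symbol, and 8 of these 11, Rarb included, were at or below background on all 4 arrays, against 26.2% of all genes on the array by their brightest probe set. Only Blvrb, a biliverdin reductase, reached the level for the test. It read 11.10 and 11.14 with vehicle and 10.51 and 11.16 with WIN 18,446, and was not called (difference -0.29, limma adjusted p = 0.528).

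Of the genes known to be induced by retinoic acid, some were lower with WIN 18,446 and most tested ones were not called. This list of 24 genes holds Rarb, Cyp26a1 and Cyp26b1, and the brightest probe set stands for each gene. It was chosen with earlier results of these data known, so its share of falls is a description. Of its 12 tested genes 4 fell, 0 rose and 8, Cyp26b1 included, were not called, against 3.46% of all tested genes that fell. The median difference of the 12 was -0.31 against -0.02 over all tested genes. Dhrs3, a retinaldehyde reductase, read 10.57 and 10.52 with vehicle and 9.18 and 9.20 with WIN 18,446 (difference -1.36, limma adjusted p = 0.0135). Stra6, the receptor for retinol uptake, read 8.19 and 8.28 against 6.52 and 6.26 (difference -1.84, limma adjusted p = 0.0192). Rarres1 and the transcription factor Gata6 fell by 0.68 and 0.84 (limma adjusted p = 0.0288 and 0.0311). Stra8, the germ cell gene that retinoic acid induces before meiosis, read 7.02 and 6.42 with vehicle and 2.03 and 2.04 with WIN 18,446, and its mean was under the level filter. Its limma adjusted p was 0.00718 when probe sets needed a level of 5 on any 2 arrays, and 0.075 when all probe sets entered. Btg2, an antiproliferative gene, read 7.11 and 8.01 with vehicle and 9.38 and 9.09 with WIN 18,446, the opposite direction, and was not called (difference 1.67, limma adjusted p = 0.0592). With either vehicle array left out limma called 0 probe sets at all, these genes included. The lower bound of the Cyp26b1 interval, -0.67, lay above the differences of Dhrs3 and Stra6, and the difference between Cyp26b1 and these genes was not tested.

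**Figure D2:**
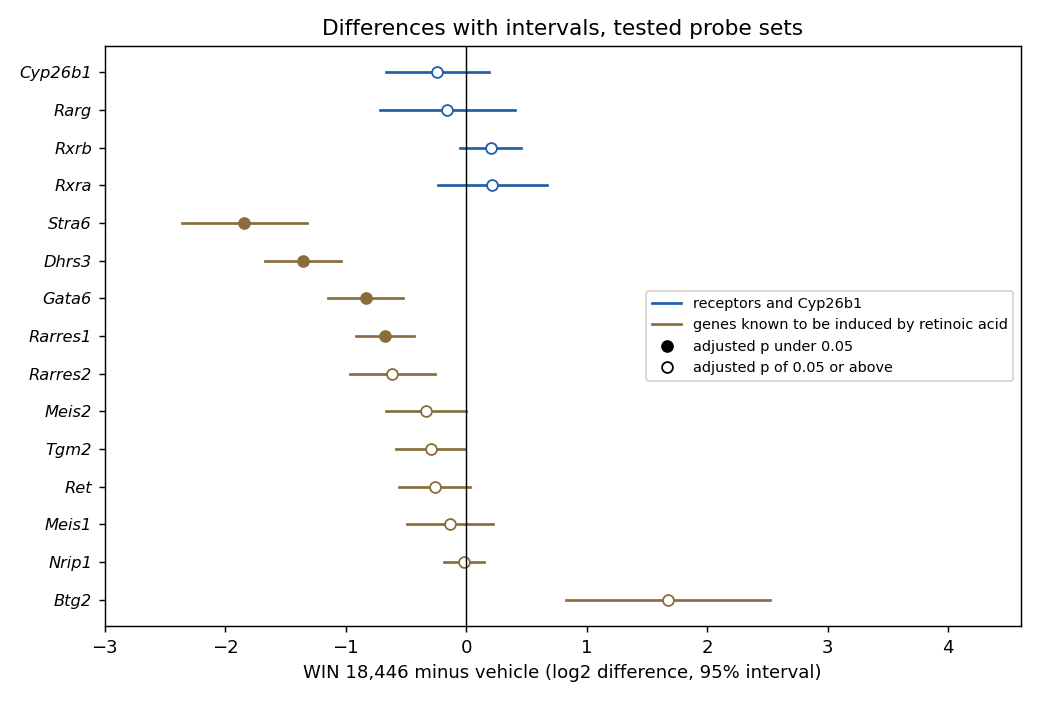
WIN 18,446 minus vehicle (log2 difference, point) with its 95% interval (line) for the 4 tested receptor and Cyp26 probe sets, in blue, and for the other tested genes known to be induced by retinoic acid, in brown. Filled points have an adjusted p under 0.05. The 4 blue intervals include 0, while those of Stra6, Dhrs3, Gata6, Rarres1 and, not called, Rarres2 and Tgm2 lie wholly below it and that of Btg2, not called, above it.

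Genes of the proteins that RAR and RXR recruit were followed as well. Of 7 tested corepressor genes and 11 tested coactivator genes 0 were called in limma, with medians of 0.02 in both lists. The smallest p among the corepressors was that of Gps2, a subunit of a corepressor complex (difference 0.29, limma adjusted p = 0.238). Among the coactivators it was that of Ncoa2, which binds ligand-loaded receptors (difference -0.38, limma adjusted p = 0.0576). Ncoa2 read 12.78 and 12.73 with vehicle and 12.42 and 12.32 with WIN 18,446, and its groups did not overlap.

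The 2 tested carriers of retinoic acid were not called. Crabp2, also on that list, was under the level for the test, at 3.04 and 2.90 with vehicle and 2.84 and 2.81 with WIN 18,446. Fabp5, a fatty acid binding protein that also carries retinoic acid, differed by 0.24 (limma adjusted p = 0.0983), and Crabp1, a cellular retinoic acid binding protein, by -0.20 (limma adjusted p = 0.503). Of 10 tested genes of synthesis and supply, Dhrs3 and Stra6 fell, 0 rose and 8 were not called, against 3.46% of all tested genes that fell and 2.94% that rose, with a median of -0.15. Of the 2 tested genes of electron supply, Cyb5a and Cyb5r3 (cytochrome b5 and its reductase), 0 were called (smallest limma adjusted p = 0.313, for Cyb5r3). Cyp26c1 and Por, also on the pathway lists, were not analysed here.

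Among the other nuclear receptors that pair with RXR, 2 of 5 tested genes fell, 1 rose and 2 were not called, against 3.46% of all tested genes that fell and 2.94% that rose. Vdr, the vitamin D receptor, read 11.38 and 11.09 with vehicle and 6.88 and 5.90 with WIN 18,446 (difference -4.84, limma adjusted p = 0.00999). Thra, a thyroid hormone receptor, fell by 0.50 (limma adjusted p = 0.0333). Nr4a1, an orphan receptor induced by many stimuli, rose by 0.71 (limma adjusted p = 0.0419). These calls too were lost without either vehicle array, where limma called 0. Rxra and Rxrb, the RXRs that could be tested, were not called, and the difference between them and these partners was not tested.

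**Figure D3:**
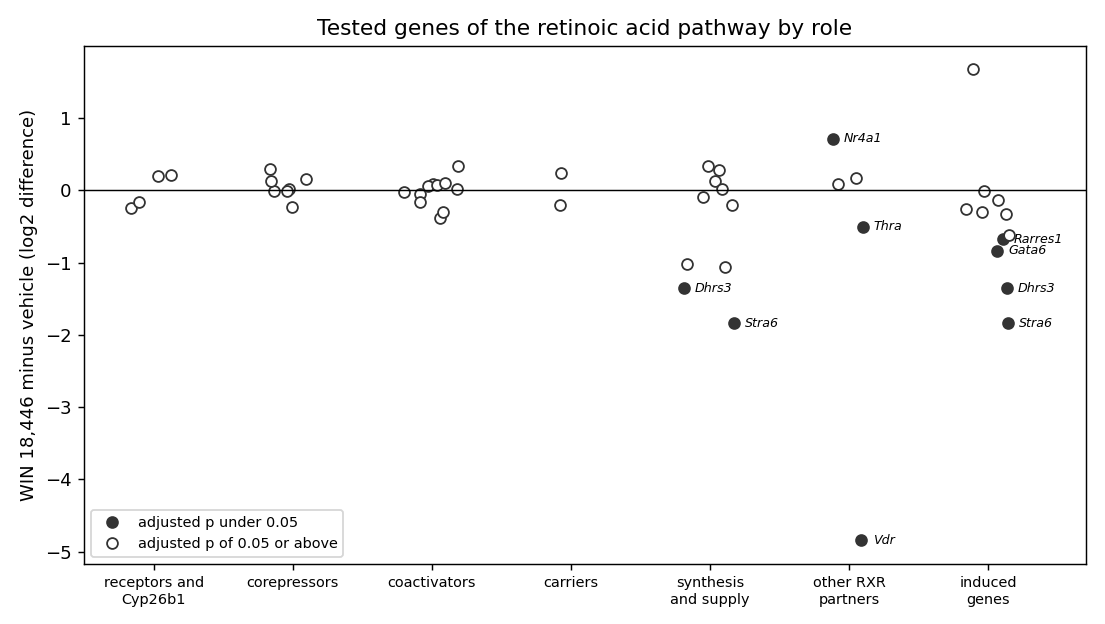
WIN 18,446 minus vehicle (log2 difference) of each tested gene, by its role in the pathway; filled points, named, have an adjusted p under 0.05, and the sideways spread of points has no meaning. The receptors and Cyp26b1, the corepressors, the coactivators and the carriers hold open points within 0.4 of 0, and Vdr lies lowest at -4.84. Genes on 2 lists are drawn in both, except Cyp26b1, which is drawn with the receptors and not among the induced genes.

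The genes whose 4 values, each set centred on its mean, lay nearest to those of Rxrb and of Cyp26b1 were found among 10966 tested genes. For Rxrb they were Gm8096, Wrap73 and Jag1, a Notch ligand, at Euclidean distances of 0.017, 0.018 and 0.022 log2 units. For Cyp26b1 they were Zfp446, 1810044D09Rik and Acsf2, at 0.045, 0.058 and 0.065. None of the 6 was called in limma (adjusted p from 0.35 for Jag1 to 0.576 for 1810044D09Rik), and likeness over 4 arrays is a description.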

How the data were processed

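The authors deposited log2 levels, 1 column per array, already background-corrected, normalized and summarised per probe set. RMA and GCRMA are both named, per the submitters' processing notes, with no word on which made the table, and the log2 scale was read from the values. The table is not centred per probe set. GEO's annotation of this array gave the gene symbols: 34945 probe sets had 1 symbol, 932 several and 9160 none. The 64 control probe sets were left out of the tests.

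The test was limma 3.58.1 under R 4.3.3 (lmFit, eBayes with trend, two-sided), with 2 residual and 3.19 prior degrees of freedom. It was also run on simulated normal values with known changes, drawn with the variances of its own fit. That run does not bear on how far the calls rest on single arrays. With 2 arrays per group the smallest exact permutation p is 0.333, so that test was not used. The number of arrays limits the precision.

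The genes and lists were chosen with earlier results of these data known. All probe sets of the 8 genes are given. From each list the called genes are named, at most 4 by smallest p, or the gene of smallest p where none was called. Stra8, Btg2, Rarres2, Tgm2, Amh, Fabp5, Crabp1, Crabp2, Cyb5a and genes not analysed were named outside this rule after their values were seen. So were the germ cell genes Dazl, Ddx4, Zbtb16, Dppa4 and Gfra1. The promoter search was also chosen after the values were seen. Alternatives were other level filters, normalization again, other variance moderation, a replicate block, leaving out each array, 1 probe set per gene and a threshold of 0.10. Leaving out an array assumes that its lone partner varies as the other group does.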

Additional observations from a re-analysis of the deposited data

How the results depend on the processing

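None of the 4 tested receptor and Cyp26 probe sets was called by limma under any of the 14 alternatives (3 were tested with a mean of at least 7, and all 11 probe sets with no filter), and with an unadjusted p under 0.05 there was 1, Rxrb without treated array 2. Of 24 differences under the 6 alternatives that change the values or the arrays used, 23 kept their sign, and 1 turned: Rxra ranged from -0.0047 to 0.44 over the arrays left out. Adjusted p-values over the alternatives ran from 0.222 to 0.913 for Cyp26b1, 0.529 to 0.929 for Rarg, 0.367 to 0.997 for Rxra and 0.121 to 0.676 for Rxrb. The number of probe sets called over the whole array was 1083, and it was 2216 at a threshold of 0.10, 3 with no level filter and 372 when eBayes had no trend. It ranged from 0 to 1398 with 1 array left out: 0 without either vehicle array (2455 and 2820 at an unadjusted p under 0.05), 664 without treated array 1 and 1398 without treated array 2. The cause was not tested. Deviations of same-numbered arrays had a correlation of 0.014 over the tested probe sets, which does not settle whether samples were paired. With the replicate number as a block, limma called 1467 probe sets and 0 of the receptor and Cyp26 probe sets. The block took the unadjusted limma p of Cyp26b1 from 0.212 to 0.0706 (adjusted p 0.275). Background limits Rarb, Rxrg and Cyp26a1, for which a fall was not detectable.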
